A study of Mus musculus with 12 samples.

Results

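Il1a, Tnf, Tnfsf13b and Tnip1 were followed in RNAseq read counts of airway macrophages (AMs) from Scnn1b-Tg and WT mice. The 4 genes were chosen by their function, as inflammatory cytokine genes and an inhibitor of NF-kB, and selected on the Scnn1b-Tg against WT difference of these counts, which was already known. They are 4 of the 1999 rows that could be given a gene, in a table of 19161 rows without gene names. Each row was named through the mean normalized count listed in the study's supplement, and that list runs in order of p-value and is held here in part. The Scnn1b-Tg minus WT values of the 4 genes are therefore a description. Both genotypes were on a C57BL/6 background, 6 weeks of age and untreated. Scnn1b-Tg mice overexpress the beta subunit of the epithelial sodium channel in airway club cells, under the promoter of a club cell secretory protein, and their airways become obstructed with mucus, whereas WT mice lack the transgene. AMs of both genotypes were flow sorted from dispase-digested lung as CD45+ Siglec-F+ CD11c+ cells, which is a gate on the cells and not on the transgene. Batches 1, 2 and 3 held 1 library of each genotype, and batch 4 held 3 of each, which gave 6 Scnn1b-Tg and 6 WT libraries. The study describes its replicates as biological, the labels do not give the number of mice per library, and p-values measure the spread between these libraries.

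IL-1α, encoded by Il1a, is an alarmin that is active without processing and signals through the IL-1 receptor. TNF, encoded by Tnf, is a membrane-bound or shed cytokine that macrophages release early after activation. BAFF, encoded by Tnfsf13b, belongs to the same ligand family and is a survival factor for B cells. Receptors of IL-1 and TNF activate the transcription factor NF-kB, and ABIN1, the product of Tnip1, binds ubiquitin chains and restrains that pathway together with the deubiquitinase encoded by Tnfaip3. In the lung, AMs are the resident phagocytes of the airspace, and they hold these signals low while the airway is undisturbed.

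Il1a (ENSMUSG00000027399) lies on the minus strand of chr2:129299610-129309972 in GRCm38, the build of the counts. Tnf (ENSMUSG00000024401) is on the minus strand at chr17:35199381-35202007. Tnfsf13b (ENSMUSG00000031497) is on the plus strand at chr8:10006467-10039072. Tnip1 (ENSMUSG00000020400) is on the minus strand at chr11:54910785-54962917. The counting did not use strand, and 3 of the 4 genes overlap an annotated gene on the opposite strand. Gm14023 overlaps Il1a over 8217 bp, Gm44789 overlaps Tnfsf13b over 3101 bp and the processed pseudogene Gm12230 overlaps Tnip1 over 454 bp, so reads within these overlaps cannot be assigned to one strand. The overlaps are of whole gene spans, and their share of exons was not measured. Tnf overlaps no other annotated gene.

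The 250 bases before each start site (RefSeq, GRCm38.p6) are shown because the 4 genes differ in the letters next to their starts and 3 of them are classical members of the NF-kB circuit. The windows are chr2:129309973-129310222 (minus strand) for Il1a, chr17:35202008-35202257 (minus) for Tnf, chr8:10006217-10006466 (plus) for Tnfsf13b and chr11:54962941-54963190 (minus) for Tnip1. Capitals mark matches on either strand to the kB consensus of NF-kB, to the AP-1-like letters TGANTCA or to the TATA-like letters TATAAA, and the motifs did not overlap each other.
Il1a: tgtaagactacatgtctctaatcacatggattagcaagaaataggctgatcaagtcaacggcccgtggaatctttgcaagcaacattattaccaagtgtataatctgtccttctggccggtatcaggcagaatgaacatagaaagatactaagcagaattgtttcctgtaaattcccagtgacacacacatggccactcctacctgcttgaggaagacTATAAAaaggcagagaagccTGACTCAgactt
Tnf: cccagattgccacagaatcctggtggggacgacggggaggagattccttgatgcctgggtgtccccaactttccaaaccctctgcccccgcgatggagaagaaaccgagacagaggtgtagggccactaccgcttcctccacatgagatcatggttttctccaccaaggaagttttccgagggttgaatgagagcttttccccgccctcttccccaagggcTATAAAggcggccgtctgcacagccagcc
Tnfsf13b: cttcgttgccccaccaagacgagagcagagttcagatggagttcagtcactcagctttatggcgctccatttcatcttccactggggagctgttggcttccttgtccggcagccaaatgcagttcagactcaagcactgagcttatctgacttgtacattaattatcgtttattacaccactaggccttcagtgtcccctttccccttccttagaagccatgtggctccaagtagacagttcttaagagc
Tnip1: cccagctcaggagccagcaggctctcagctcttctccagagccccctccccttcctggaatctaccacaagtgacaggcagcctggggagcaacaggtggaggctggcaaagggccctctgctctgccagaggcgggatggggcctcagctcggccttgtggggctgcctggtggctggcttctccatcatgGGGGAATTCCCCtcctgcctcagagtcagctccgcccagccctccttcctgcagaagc
The Tnip1 window held 1 palindromic stretch that matched the kB consensus at 3 overlapping positions, from -58 to -56 relative to the start site. The kB consensus was found in 7.01% of 27025 promoter windows of this length. Il1a held a TATA-like match at -32 and an AP-1-like match at -12, and Tnf held a TATA-like match at -29. TATA-like letters occurred in 13% of windows and AP-1-like letters in 6.87%. Tnfsf13b held none of the 3 motifs in this window. GC made up 65.2% of the Tnip1 window, 57.6% of that of Tnf, 48.8% of that of Tnfsf13b and 42.4% of that of Il1a. The RefSeq start of Tnip1 lies 23 bases before the GENCODE gene start, and of 2 RefSeq starts of Tnfsf13b the one at the GENCODE start was used. These matches are letters in a window and not measured binding sites.

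Total counts ranged from 40259958 to 121813289 per Scnn1b-Tg library and from 45414386 to 110091439 per WT library, and no batch 4 library exceeded 51832335. Scnn1b itself had 59 to 7096 counts in the Scnn1b-Tg libraries and 0 to 1215 in the WT libraries, so the ranges overlapped, and within each batch the Scnn1b-Tg libraries were above the WT libraries. The markers of resident AMs that could be named (8 of 16) summed to 26388 to 64316 CPM in Scnn1b-Tg and 26439 to 37152 CPM in WT libraries. One library stood apart: in Scnn1b-Tg replicate 1 (batch 1) 3 of 8 dendritic cell markers summed to 85.9 CPM, against 7.59 CPM in the WT library of that batch. Most of the 85.9 CPM came from Mgl2 at 47.4 CPM and Cd209a at 35.8 CPM. The study also stained the proteins of both as markers of alternative macrophage polarization. The sum was also higher in Scnn1b-Tg than in WT libraries in batches 2, 3 and 4, at lower levels. Within batch 4, the titles of the WT and the Scnn1b-Tg libraries start with different codes, and the difference between codes cannot be told apart from genotype there. Values below are CPM, counts divided by library size and scaled with TMM factors, and 16972 rows passed the filter on low counts, all 4 genes included.

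Il1a was higher in Scnn1b-Tg AMs. Its CPM was 36.2, 40.8 and 18.3 in the Scnn1b-Tg libraries of batches 1, 2 and 3 and 66.1, 82.5 and 70.0 in those of batch 4. In WT libraries it was 14.1, 18.2 and 16.1 in batches 1 to 3 and 32.6, 30.6 and 24.6 in batch 4. Each of the 6 Scnn1b-Tg libraries lay above the WT mean of its own batch, but the genotypes overlapped across batches, since the Scnn1b-Tg library of batch 3 was below the batch 4 WT libraries. The means were 52.3 ± 24.3 CPM in Scnn1b-Tg and 22.7 ± 7.78 CPM in WT AMs (SD, n = 6 each). With batch as a block the log2 difference was 1.12 ± 0.16 (SE), or 2.17-fold, which took rank 26 of 16972 by p. The log2 difference was 1.36 in batch 1, 1.17 in batch 2, 0.18 in batch 3 and 1.32 in batch 4. In bulk RNA, more AMs that express a gene and more of its RNA per cell cannot be told apart, which holds for every gene below. Without Scnn1b-Tg replicate 1, the library with the highest dendritic cell markers, the log2 difference of Il1a was 1.06 ± 0.19 (SE) and its call was lost (edgeR adjusted p = 0.124, against 0.0298 with the library). The call was also lost without WT replicate 1 (1.06), Scnn1b-Tg replicate 2 (1.10) or WT replicate 2 (1.10). In batch 2 the dendritic cell markers summed to 7.56 CPM in the Scnn1b-Tg and 1.61 CPM in the WT library. The part of dendritic cells in the Il1a difference was not tested.

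Tnip1 was higher as well, by a smaller step. The Scnn1b-Tg libraries had 29.7, 42.9 and 42.3 CPM in batches 1 to 3 and 58.5, 44.4 and 56.5 CPM in batch 4. The WT libraries had 24.5, 25.6 and 27.5 CPM in batches 1 to 3 and 35.6, 39.7 and 35.7 CPM in batch 4. Within each batch the Scnn1b-Tg libraries were above the WT libraries, whereas across batches the genotypes overlapped. The means were 45.7 ± 10.6 CPM in Scnn1b-Tg and 31.4 ± 6.34 CPM in WT AMs (SD, n = 6 each). The log2 difference was 0.53 ± 0.098 (SE), or 1.45-fold, with rank 61. Across batches it ran from 0.27 in batch 1 through 0.51 in batch 4 and 0.62 in batch 3 to 0.74 in batch 2.

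Tnfsf13b was lower in Scnn1b-Tg AMs, and it was the gene of the 4 with the widest separation. It had 1.17, 1.08 and 0.516 CPM in the Scnn1b-Tg libraries of batches 1 to 3 and 0.195, 1.58 and 0.631 CPM in those of batch 4. The WT libraries had 3.83, 4.12 and 4.70 CPM in batches 1 to 3 and 3.43, 4.45 and 3.86 CPM in batch 4. The highest Scnn1b-Tg library therefore lay below the lowest WT library. These levels rest on 10 to 115 counts per Scnn1b-Tg library and 206 to 393 per WT library. The means were 0.861 ± 0.504 CPM in Scnn1b-Tg and 4.06 ± 0.458 CPM in WT AMs (SD, n = 6 each). The log2 difference was -2.28 ± 0.46 (SE), a 4.84-fold lower level, with rank 86. By batch it was -1.69, -1.90, -3.11 and -2.66. Among the Scnn1b-Tg libraries the spread was wide in relation to the level: within batch 4 replicate 4 held 10 counts and replicate 5 held 76.

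Tnf did not show a common direction. The Scnn1b-Tg libraries had 11.7, 19.5 and 11.8 CPM in batches 1 to 3 and 118, 123 and 77.7 CPM in batch 4. The WT libraries had 20.2, 14.2 and 15.3 CPM in batches 1 to 3 and 46.2, 29.9 and 26.1 CPM in batch 4. Scnn1b-Tg was thus below WT in batches 1 and 3, above it in batch 2, and above it without overlap in batch 4. The means over all libraries, 60.3 ± 52.9 CPM in Scnn1b-Tg and 25.3 ± 11.9 CPM in WT AMs (SD, n = 6 each), were carried by batch 4. The log2 difference over 12 libraries was 0.72 ± 0.37 (SE), with rank 2146. It was -0.80 in batch 1, 0.45 in batch 2 and -0.38 in batch 3. In batch 4 Tnf was at 106 ± 25 CPM in Scnn1b-Tg and 34.1 ± 10.7 CPM in WT AMs (SD, n = 3 each), a ratio of 3.12 and a log2 difference of 1.66.

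**Figure D1:**
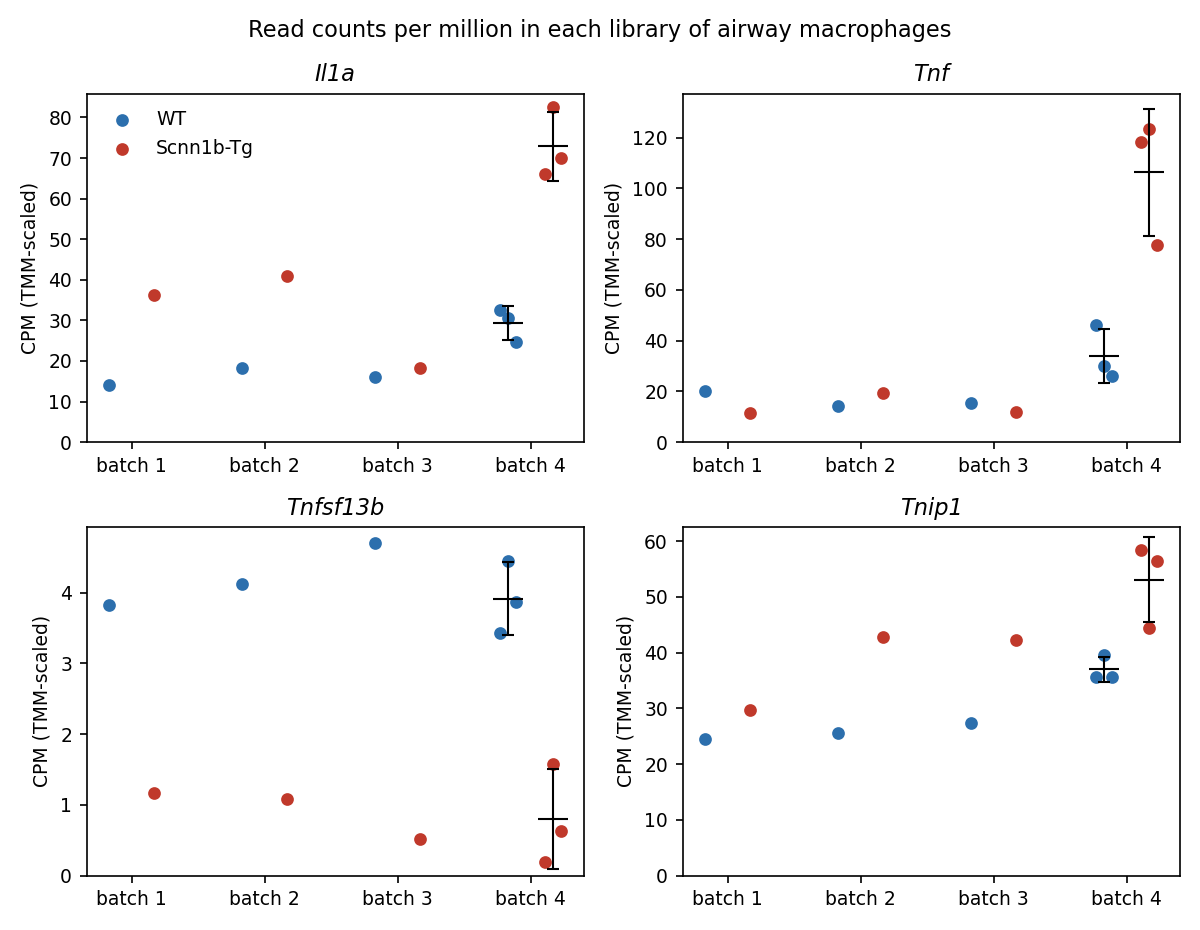
TMM-scaled CPM of the 4 genes in each library (points), WT in blue and Scnn1b-Tg in red, by batch, with the mean and SD of the 3 libraries of each genotype in batch 4 (black). Tnfsf13b separates the genotypes in every batch, at most 1.58 CPM in Scnn1b-Tg and at least 3.43 CPM in WT, whereas Tnf separates them upward in batch 4 but not in batches 1 and 3.

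At an adjusted p under 0.1 and an absolute log2 difference above 0.5 (edgeR, over all rows), Il1a and Tnip1 met both limits and Tnf and Tnfsf13b did not, so 2 of 4 genes were called higher and 0 of 4 lower. The background shares were 0.295% of rows called higher and 0.0589% called lower, and nothing is read from this count because the choice of the genes used the same contrast. Tnfsf13b was called by DESeq2 and with a filter at 1 CPM, both with a log2 difference of -2.28, and by limma-voom with -2.37. Leaving out either library of batch 1, 2 or 3 takes the whole pair out of the comparison, so 12 left-out libraries gave 9 distinct fits. Il1a kept its call in 7 of these 9, Tnip1 in 1, and Tnfsf13b gained one in 2. A gene with 6 Scnn1b-Tg libraries below 6 WT libraries, as Tnfsf13b, occurred in 0.0589% of rows. Il1a and Tnip1 were above WT in each of the 4 batches, as were 8.46% of rows, and Tnfsf13b was below WT in each, as were 7.65%. In batch 4, Il1a, Tnf and Tnip1 had 3 Scnn1b-Tg libraries above 3 WT libraries, a pattern of 7.55% of rows, and Tnfsf13b had the reverse, a pattern of 7.44%. These counts share the contrast by which the genes were picked.

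**Figure D2:**
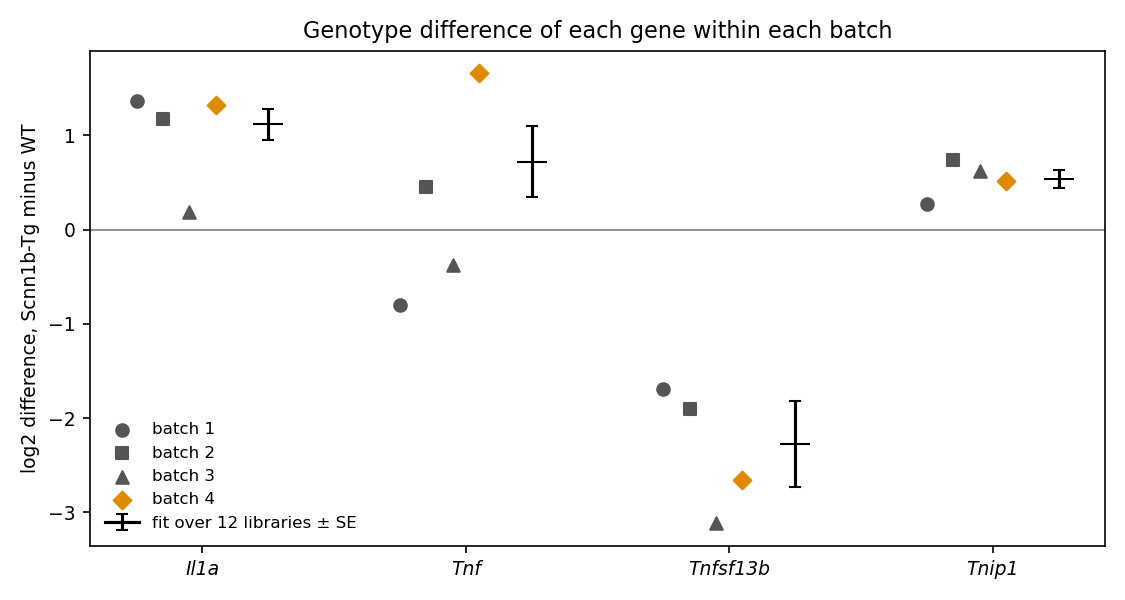
Log2 difference (Scnn1b-Tg minus WT) of the 4 genes in each batch (symbols; batches 1 to 3 have 1 library of each genotype, batch 4 has 3) and from the fit over 12 libraries with its SE (black). The Tnf values range from -0.80 in batch 1 to 1.66 in batch 4, and the other 3 genes keep one sign.

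The difference of the genotype effect between batch 4 and batches 1 to 3 is another contrast than the genotype difference. The values per batch were known when the genes were chosen, so its p-values are not independent of that choice. None of the 4 genes passed at an adjusted p under 0.1 (edgeR's quasi-likelihood test), against 0.112% of rows. For Tnf the effect was 1.89 ± 0.42 (SE) higher on the log2 scale in batch 4, or 3.69-fold, with an unadjusted p of 0.00147 and an adjusted p of 0.424 in edgeR, which was rank 58. Tnf was the 1 of 4 genes with an unadjusted p under 0.05, a level that 1130 of 16972 rows reached. DESeq2 gave 1.91 and an adjusted p of 0.00297 for the same difference, and it called 225 rows in place of 19. The Tnf difference stayed between 1.62 and 2.26 when each library was left out in turn. For Il1a the batch difference was 0.41 ± 0.31 (SE; edgeR adjusted p = 0.858), and it ran from 0.076 without Scnn1b-Tg replicate 3 to 0.66 without WT replicate 1. It was -0.03 ± 0.20 for Tnip1 and -0.03 ± 0.93 for Tnfsf13b (SE; edgeR adjusted p = 1 for both), and both signs turned under other settings. The SE of 0.93 for Tnfsf13b was 0.68 without Scnn1b-Tg replicate 4, the library with 10 counts.

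The level itself also differed between batches, over both genotypes. Tnf was 3.92-fold higher in batch 4 than in batches 1 to 3 (log2 1.97 ± 0.38 SE, edgeR adjusted p = 0.00138). Il1a was 2.07-fold higher (log2 1.05 ± 0.16 SE, edgeR adjusted p = 3.1e-04) and Tnip1 was 1.42-fold higher (log2 0.50 ± 0.098 SE, edgeR adjusted p = 0.00147). Tnfsf13b differed by -0.15 ± 0.44 (SE; edgeR adjusted p = 0.818). With an absolute log2 difference above 0.5 required too, 3 of the 4 genes were called higher in batch 4, but 23.4% of rows were called higher and 26.4% lower, so a shift between batches was common. With library totals in place of TMM the split of 3972 higher and 4479 lower rows became 6417 and 2812, and the log2 differences became 2.45 for Tnf, 1.53 for Il1a, 0.98 for Tnip1 and 0.34 for Tnfsf13b. The call of Tnip1 lay at the limit of 0.5 and was lost without a filter on low counts. Of the variance of log2 CPM over the 12 libraries, batch took 68.8% for Tnf, 46.8% for Il1a, 46.6% for Tnip1 and 2.35% for Tnfsf13b. Genotype took 8.94%, 45.0%, 44.4% and 77.0% in the same order.

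Divided by exon length, the levels of the 4 genes can be set side by side. In WT AMs Tnf was at 15.5 ± 7.24 CPM per kb, Il1a at 11.5 ± 3.94, Tnip1 at 8.88 ± 1.79 and Tnfsf13b at 0.592 ± 0.0668 (SD, n = 6). Neighbours in this order overlapped, with 8.67 to 28.2 CPM per kb for Tnf, 7.13 to 16.5 for Il1a and 6.93 to 11.2 for Tnip1, except that Tnfsf13b lay apart at 0.499 to 0.684. In Scnn1b-Tg AMs the order of the means was the same, with 36.8 ± 32.3 CPM per kb for Tnf, 26.5 ± 12.3 for Il1a, 12.9 ± 2.98 for Tnip1 and 0.125 ± 0.0733 for Tnfsf13b (SD, n = 6). The order did not hold in Scnn1b-Tg AMs of batches 1 to 3, where Il1a reached 9.26 to 20.7 CPM per kb, Tnip1 8.38 to 12.1 and Tnf 7.11 to 11.9. In batch 4 Scnn1b-Tg AMs, Tnf at 47.4 to 75.3 CPM per kb lay above Il1a at 33.5 to 41.8, and Il1a lay above Tnip1 at 12.5 to 16.5.

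Between libraries, the genes were compared after batch means were taken out of log2 CPM, and again after genotype means were taken out as well. These are descriptions over 12 libraries that share the batches. Tnfsf13b and Tnip1 ran opposite to each other, at a Pearson r of -0.93 without batch and -0.65 without batch and genotype. Il1a and Tnf ran together at 0.66 and 0.50. Il1a and Tnip1 had an r of 0.78 without batch and of -0.40 once genotype was removed too. Il1a and Tnfsf13b turned as well, from -0.74 to 0.43. Tnf and Tnfsf13b had -0.54 and -0.16, and Tnf and Tnip1 had 0.48 and -0.01.

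Among 1976 other rows that could be named, those most like Tnf were Cxcl2, which encodes a neutrophil chemokine (r = 0.95), and Plk3, a stress-response kinase (r = 0.94), after batch means were removed. Cxcl2 stayed first when genotype means were removed too, at r = 0.93. Both genes had a larger genotype difference in batch 4 (batch difference 1.89 for Tnf and 2.70 for Cxcl2), which that removal leaves in. Il1a was most like Gm7984 (r = 0.97), Il1rl1 (r = 0.96), the IL-33 receptor, Gdf15 (r = 0.96), a stress-induced cytokine, Mmp12 (r = 0.96), the macrophage elastase, and Cd209a (r = 0.95), one of the dendritic cell markers. With genotype means removed as well, the closest to Il1a were Stx7 (r = 0.97), a syntaxin of endosomes, and Mtm1 (r = 0.90), and none of the first 5 remained. Tnfsf13b was closest to the kinase Sgk3 both ways (r = 0.98 and 0.94), and Il18rap, a chain of the IL-18 receptor, was also among its 5 closest both ways (r = 0.95 and 0.90). Tnip1 was closest to Tfe3 (r = 0.96), a transcription factor of lysosome genes, Inpp5d (r = 0.95), Cited4 (r = 0.95), Trem2 (r = 0.95), a lipid-sensing receptor, and Cd82 (r = 0.95). Once genotype was removed, Avl9 (r = 0.94) led and none of these 5 remained among its 5 closest.

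The other genes of these pathways were taken from lists, of which some members could be named. That share is no random sample, because the names come from a list in order of p-value for the same genotype contrast. Of 10 IL-1 family ligands 1 could be named, Il1a. Of 18 TNF superfamily ligands 3 could be named, Tnf, Tnfsf13b and Tnfsf12, and 0 of 3 were called. With 0.295% of all rows called higher and 0.0589% lower, counts of 0 in lists this short say nothing about the lists. Tnfsf12, which encodes TWEAK, had a log2 difference of 0.28 ± 0.10 (SE). On the receptor side, 4 of 28 TNF superfamily receptors were named and 0 called: Tnfrsf26 at 0.33, Fas, the death receptor, at 0.29, Tnfrsf11a at -0.36 and Cd40 at -4.82 on the log2 scale. Cd40, with an SE of 1.73, had 1.72 CPM in Scnn1b-Tg replicate 1 and no more than 0.0569 CPM in replicates 2 to 6, against 0 to 0.921 CPM in WT libraries. Of 18 IL-1 receptors, signal transducers and inflammasome genes 4 were named and 0 called. Of these, Il1rl1 was at 5.92 ± 1.26 (SE) on the log2 scale, with at most 3.26 CPM in any library, whereas Il18rap was at -1.18 ± 0.40, Irak3, an inhibitory kinase homologue, at -0.52 ± 0.23 and Nlrp3, the inflammasome sensor, at -0.27 ± 0.089. Traf3 was the 1 of 14 receptor adaptors and ligand processing genes with a name, at -0.96 ± 0.35 (SE), not called. None of the 14 NF-kB subunits and kinases could be named.

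Tnip1 was the 1 called gene among 6 named of 18 NF-kB inhibitors, where 0.295% of all rows were called higher. The 6 had positive log2 differences with a median of 0.52, against 0.0116 over all rows tested. Nothing is read from the count or the median, because the names come from a list in order of p for the same contrast. Tnip3 had 1.94 ± 0.73 (SE), the largest of the 6, and was not called. Nfkbid, a nuclear inhibitor of the IkB family, had 1.16 ± 0.34 (SE) and Tnfaip3, the deubiquitinase partner of Tnip1, had 0.50 ± 0.26. Zfp36, an mRNA decay factor of Tnf, had 0.43 ± 0.15 and Tank had 0.33 ± 0.12. For Tnfaip3 the difference was 0.07 in batches 1 to 3 and 0.95 in batch 4, and for Zfp36 it was 0.0068 and 0.84. Neither batch difference passed the test (edgeR adjusted p = 0.786 for Tnfaip3 and 0.135 for Zfp36). Tnip1 had 0.55 and 0.51, which put it near the line of equal difference.

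Inflammatory genes that NF-kB induces were compared over batches too. Of 24 listed genes 10 were named and 0 were called for genotype, where 0.295% of all rows were called higher and 0.0589% lower. The 10 had positive log2 differences with a median of 1.45, again by genes that were named through the same contrast. The batch difference was higher in batch 4 for 8 of 10, and 2 of 10 passed the test. Over all rows these shares were 48.7% and 0.112%, and over the 1113 named rows with a higher level in Scnn1b-Tg AMs, which share the way the names were gained, 46.5% and 0.898%. The list was chosen with these results known, so the counts are a description. Ccl3, a chemokine that macrophages release, differed by 0.29 in batches 1 to 3 and by 2.61 in batch 4 (batch difference 2.27 ± 0.33 SE, edgeR adjusted p = 0.0904). Cxcl2 differed by -0.36 in batches 1 to 3 and by 2.28 in batch 4 (batch difference 2.70 ± 0.41 SE, edgeR adjusted p = 0.0961). For Osm, which encodes oncostatin M, and Ccl2 the batch differences of 2.77 ± 0.61 and 2.94 ± 0.85 (SE) did not pass. Icam1 and Csf1 had the larger difference in batches 1 to 3.

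**Figure D3:**
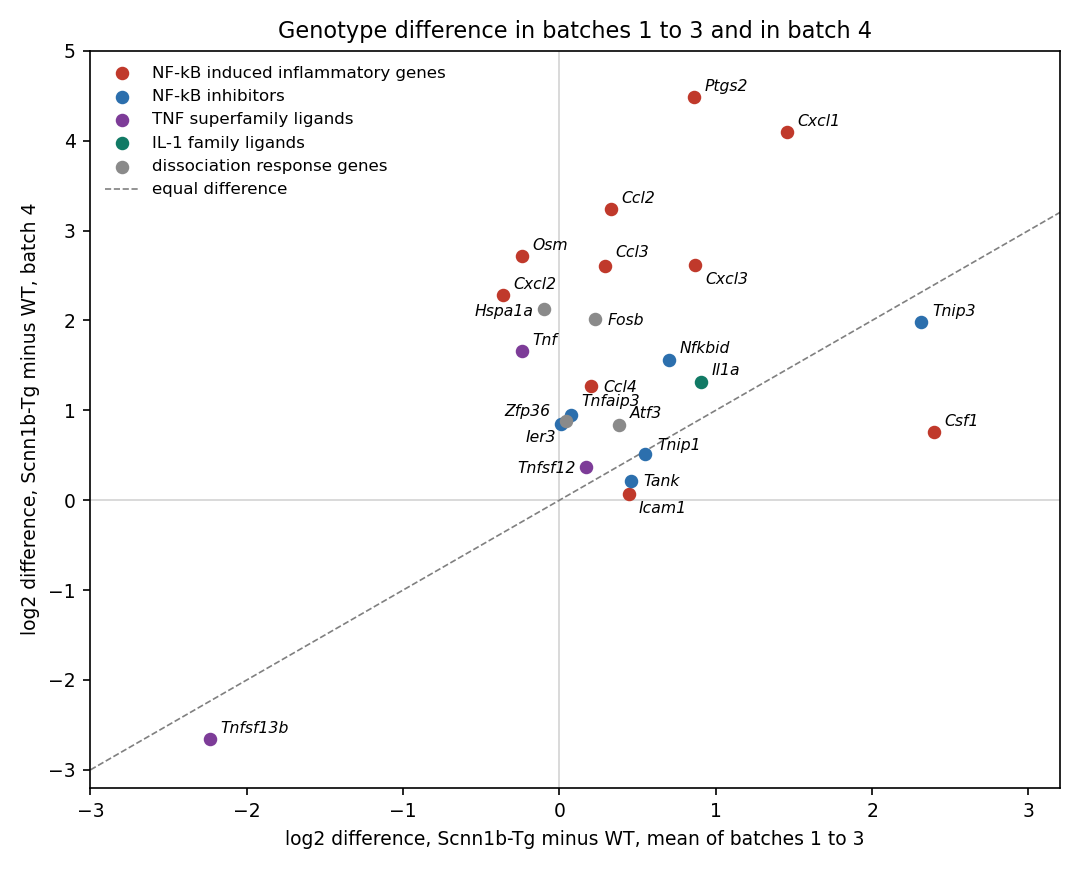
Log2 difference (Scnn1b-Tg minus WT) in batches 1 to 3 (x axis, mean of the 3 batches) and in batch 4 (y axis) for the named genes of 5 lists (colors), with the line of equal difference (dashed). Tnip1 at 0.55 and 0.51 lies next to the line, Tnf at -0.24 and 1.66 lies above it with most NF-kB induced genes, and Tnfsf13b at -2.24 and -2.66 lies at the other end.

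The named NF-kB induced genes summed to 328 to 407 CPM in Scnn1b-Tg and 123 to 160 CPM in WT libraries of batch 4, and to 97.2 to 147 and 106 to 145 CPM in batches 1 to 3. Genes known to respond to tissue dissociation were also summed. The 4 of 12 named (Fosb, Ier3, Atf3 and Hspa1a) summed to 184 to 199 CPM in Scnn1b-Tg and 60.3 to 73.4 CPM in WT libraries of batch 4, against 60.0 to 91.1 and 49.3 to 85.2 CPM in batches 1 to 3. Fosb, an AP-1 subunit, passed the test of the batch difference (1.78 ± 0.27 SE, edgeR adjusted p = 0.0959), while Ier3, Atf3 and Hspa1a did not (edgeR adjusted p = 0.466, 0.804 and 0.631). That is 1 of 4, where the shares were 0.112% of all rows and 0.898% of the 1113 named rows higher in Scnn1b-Tg AMs, and it is a description for the same reason. The higher Tnf of the batch 4 Scnn1b-Tg libraries thus came with higher summed dissociation genes and with other leading codes in the titles, and their part in it was not tested.

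**Figure D4:**
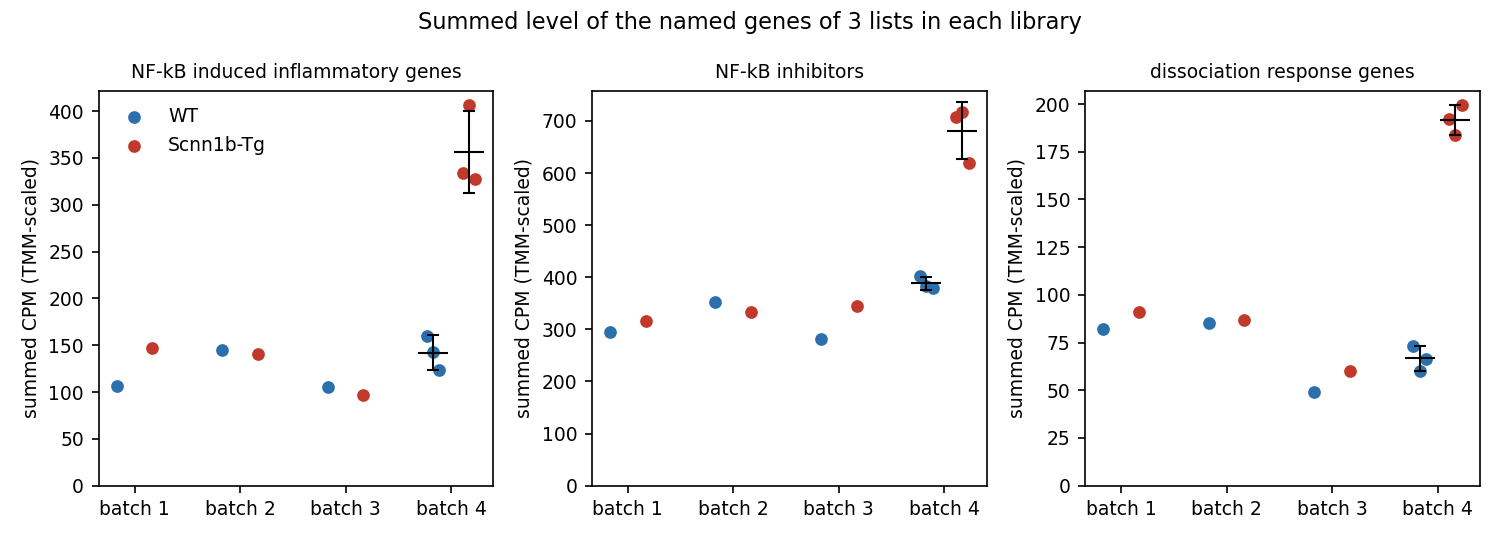
Summed TMM-scaled CPM of the named genes of 3 lists in each library (points), WT in blue and Scnn1b-Tg in red, by batch, with the mean and SD of batch 4 (black). The 3 Scnn1b-Tg libraries of batch 4 lie above the WT libraries in each panel, at 328 to 407 against 123 to 160 CPM for the NF-kB induced genes and at 184 to 199 against 60.3 to 73.4 CPM for the dissociation genes.

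Markers of other cell types were set beside the 4 genes, each list by its named members. The summed level of dendritic cell markers (3 of 8, Flt3, Cd209a and Mgl2) was higher in Scnn1b-Tg than in WT libraries in each batch. So were Il1a, Tnip1 and 8.46% of all rows. Of the 3 markers 0 were called, where 0.295% of all rows were called higher and 0.0589% lower. Counts of 0 in lists this short say nothing about the lists. The study also stained CD209A and MGL2 as markers of alternative macrophage polarization, so these names are not particular to dendritic cells. The sums were 85.9 against 7.59 CPM in batch 1, 7.56 against 1.61 CPM in batch 2 and 2.90 against 1.26 CPM in batch 3. In batch 4 they were 0.80 to 5.42 against 0.298 to 0.427 CPM. The sums of neutrophil markers (3 of 8) were 39.3 to 71.6 and 31.6 to 71.9 CPM, with log2 differences of 4.93 ± 1.26 for Mmp9, 1.02 ± 0.30 for Cxcr2 and -0.35 ± 0.09 for Csf3r (SE), none called. The levels of the 1 named monocyte marker of 8, Vcan, were 0.0507 to 1.12 and 0.244 to 3.23 CPM, lower in Scnn1b-Tg than in WT libraries in each batch. B cell markers came to 1 of 7 named, Ighm, at 1.32 to 23.2 CPM in Scnn1b-Tg and 1.10 to 8.35 CPM in WT libraries. T and NK cell markers (2 of 8) came to 0 to 8.22 and 0.250 to 19.6 CPM, with both named genes, Cd8a and Gzma, at 0 in the 3 Scnn1b-Tg libraries of batch 4. The 1 named epithelial marker of 7, Cdh1, which AMs also express, was at 99.1 to 162 and 86.9 to 125 CPM, and no eosinophil marker of 6 was named. Of the resident AM markers named, Krt79 fell by 0.65 on the log2 scale and Fabp5 rose by 0.59 in the genotype comparison (edgeR adjusted p = 0.00886 for Krt79 and 0.0583 for Fabp5). Siglecf, the marker of the sort gate, had a log2 difference of -0.31 ± 0.059 (SE, edgeR adjusted p = 0.0895), within the limit of 0.5, and Fabp4 had 0.39. The part of these cells in the differences of Il1a, Tnfsf13b and Tnip1 was not tested.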

How the data were processed

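RNAseq was measured in sorted AMs of 6 Scnn1b-Tg and 6 WT libraries. The authors aligned reads to mm10 with HISAT2 and made gene counts with StringTie, without using strand, and the deposited counts are whole numbers that are not normalized. Paired-end (SMART-Seq) and single-end (NEBNext, sequenced on a NextSeq) libraries were made. The labels name no kit per library, and the codes that open the batch 4 titles have the form of NextSeq flow cell names. Where kit and batch go together they cannot be told apart.

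The table has no gene names. The mean normalized count listed per gene in the study's supplement is a weighted sum of 12 counts, and 1999 of 1999 genes matched a row within a relative difference of 1e-12, with the next row at least 2.9e-07 away. When 999 genes were left out of the fit of the weights, 999 were paired as before. This column was used for identity alone, and 17162 rows stayed unnamed. Symbols were found for 1977 genes. Positions come from GENCODE M21 and promoters from RefSeq, where the 4 genes matched.

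Counts were tested with edgeR 4.0.16 in R 4.3.3 (TMM, edgeR's expression filter, quasi-likelihood test, Benjamini-Hochberg adjustment over 16972 rows), with batch as a block. The labels give the batch. For batches 1, 2 and 3, deviations from the mean of all 6 libraries of a genotype correlated at 0.599, 0.622 and 0.453 between genotypes. These deviations also hold the shift between batch 4 and the other batches, so the values do not show that libraries of one batch pair. Within batch 4, deviations from the batch 4 mean were used, an unlike measure. They correlated at -0.064, 0.0014 and -0.0058, so numbers within batch 4 did not pair libraries. No 2 libraries of one genotype agreed within sampling noise (lowest chi-square per row 52.5 over 30 pairs). Log2 CPM used a prior count of 2. Scripts were tested on simulated data.

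DESeq2 1.42.0, limma 3.58.1 (voom), other scalings, filters, blocks and left-out libraries were tried as alternatives. The 4 genes and the lists were chosen with earlier results of these data known. Named are the 4 genes, per list the called genes and the next by p up to 4, and per gene the 5 rows with the highest correlation. Tnfaip3, Tnip3, Osm, Ccl4, Cxcl1, Icam1 and Csf1 fall outside this rule and were named after their values were seen.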

Additional observations from a re-analysis of the deposited data

Results flagged for a closer look

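In 13 of 80 groups of 6 libraries (40 genes in each genotype), 1 library lay apart from the others by Dixon's test for 6 values. Chance alone gives this in about 1 of 20 groups of independent, normally distributed values, which CPM from 4 batches are not. None of the groups of Il1a, Tnf, Tnfsf13b or Tnip1 was among them. Where the batch 4 libraries lie together away from the others, as for Tnf in Scnn1b-Tg AMs, the test can hardly single out 1 library. Scnn1b-Tg replicate 1 was the highest library in 6: Mgl2 at 47.4 CPM, Cd209a at 35.8 CPM, Il1rl1 at 3.26 CPM, Flt3 at 2.73 CPM, Cd8a at 2.64 CPM and Cd40 at 1.72 CPM. Its WT partner of batch 1, WT replicate 1, was the highest for Mgl2 at 4.42 CPM, Cd209a at 2.73 CPM and Il1rl1 at 0.585 CPM. The remaining groups were Ptgs2 in WT replicate 2 at 1.44 CPM, Cxcl3 in Scnn1b-Tg replicate 5 at 13.1 CPM, Hspa1a in Scnn1b-Tg replicate 6 at 7.58 CPM and Tnfsf12 in Scnn1b-Tg replicate 5, the lowest at 106 CPM.

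The genotype effect differed between batch 4 and batches 1 to 3 for 5 of 82 genes examined (edgeR, adjusted p under 0.1 over all rows), against 0.112% of all rows. The 82 genes include those picked for their correlation with Tnf and its 3 companions, so they share batch patterns with these genes by choice. The log2 difference of the effects was 2.27 for Ccl3, 2.70 for Cxcl2, 1.78 for Fosb, 1.61 for Plk3 and 5.83 for Mgat1. Of these, Cxcl2, Plk3 and Mgat1 were among the genes closest to Tnf. Mgat1, a glycosyltransferase of the Golgi, had 166 to 185 CPM in WT and 3.51 to 10.7 CPM in Scnn1b-Tg libraries of batches 1 to 3, and 12.7 to 16.3 and 15.6 to 51.0 CPM in batch 4.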

How the results depend on the processing

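Over 12 libraries with batch as a block, 60 rows were called for genotype. The count was 243 with DESeq2, 97 with limma-voom, 38 at an adjusted p under 0.05 and 22 to 53 with 1 library left out (22 without Scnn1b-Tg replicate 1). It was 0 in batches 1 to 3 alone and 52 in batch 4 alone, where the leading codes of the titles cannot be told apart from genotype. Without the replicate block it was 0, and with a replicate block of 6 pairs 28. In batches 2 to 4 alone, a setting chosen after seeing the data because of the dendritic cell markers in batch 1, it was 23.

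The log2 difference of Il1a kept its sign but not its call at 1.21 without the replicate block, 1.12 with a block of 6 pairs, 0.91 in batches 1 to 3 and 1.06 in batches 2 to 4. It was 1.04 to 1.29 with 1 library left out, and the call was lost without Scnn1b-Tg replicate 1 or 2 or WT replicate 1 or 2. Tnip1 lost its call at 0.54 without the replicate block, 0.53 with 6 pairs, 0.54 in batches 1 to 3, 0.52 in batch 4 and 0.58 in batches 2 to 4. With 1 library left out it was 0.48 to 0.59, and called in 1 of 9 distinct fits, without Scnn1b-Tg replicate 5. Tnf turned to -0.24 in batches 1 to 3, and was 0.51 to 1.02 with 1 library left out. Tnfsf13b gained the call at -2.28 with a filter at 1 CPM, -2.28 with DESeq2 and -2.37 with limma-voom, and was -2.68 to -2.06 with 1 library left out, with a call at -2.06 without Scnn1b-Tg replicate 4 and at -2.68 without Scnn1b-Tg replicate 5.

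The batch difference was called for 19 rows, for 11 without a filter, for 225 with DESeq2 and for 6 to 42 with 1 library left out (6 without WT replicate 5, 42 without Scnn1b-Tg replicate 6). For Tnf it was called by DESeq2 at 1.91. For Tnfsf13b it turned sign at 0.018 with library totals in place of TMM, 0.28 in batches 2 to 4 and from -0.97 to 0.43 with 1 library left out. For Tnip1 it turned at 0.0061 with library totals and ran from -0.14 to 0.10 with 1 library left out. The batch level of Tnfsf13b turned at 0.34 with library totals and ran from -0.54 to 0.11 with 1 library left out, and that of Tnip1 was 0.49 without a filter and 0.47 to 0.59 with 1 library left out, which crosses the limit of 0.5. The cause of these changes was not tested. Tnfsf13b had the fewest counts of the 4 genes, 10 to 393 per library.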
